A study of Mus musculus with 8 samples.

Results

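*Hdac3* and the subunits of the NCoR corepressor complex were followed in total and allele-resolved RNA-seq of mouse embryonic stem cells (ESCs). The genes were chosen by name: *Hdac3* itself and 4 partners, *Ncor1*, *Tbl1x*, *Tbl1xr1* and *Gps2*, which are 5 of the 24542 gene symbols in the data. The comparison asks whether the RNA of the complex partners differed when *Hdac3* was deleted. All 8 samples come from TX1072, a female ESC line from a *Mus musculus castaneus* (Cast) by C57BL/6 (B6) cross, in which doxycycline (DOX) induces *Xist* from the B6 X chromosome. The cells grew on gelatin in serum medium with LIF and 2i. There were 4 groups of 2 samples: *Hdac3*+/+ at 0 hr, *Hdac3*+/+ after 24 hr of DOX at 1 µg/ml, *Hdac3*-/- at 0 hr and *Hdac3*-/- after 24 hr of the same DOX. *Hdac3*-/- cells were made from TX1072 by CRISPR/Cas9, and the study describes 2 clones in which exons of *Hdac3* were removed. The labels do not say which clone is which replicate. The study calls the replicates biological, the *Hdac3*+/+ ones being duplicates of the parental line, but how these were kept apart is not given in the sources used here, and p-values measure only the spread between these samples.

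HDAC3 is a class I histone deacetylase that is enzymatically active when bound to the deacetylase-activating domain of a corepressor scaffold such as NCOR1, with an inositol phosphate at the interface. The WD40-repeat proteins TBL1X and TBL1XR1 and the small protein GPS2 bind the amino-terminal part of the scaffold and complete the core complex. Nuclear receptors and other repressors dock on the scaffold, among them SPEN, an RNA-binding protein and binding partner of *Xist* RNA. The study gives a link from *Xist* through SPEN to HDAC3 as a proposal only. In its pull-down of tagged HDAC3, the protein RYBP was the only *Xist* partner detected, and its binding was weak. The study reports that most HDAC3 already sat at putative enhancers before *Xist* was induced.

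Total reads on genes ranged from 6940375 to 17125156 per sample, and between 30.1% and 31.6% of them were assigned to an allele. The 7 ESC markers (*Pou5f1*, *Sox2*, *Nanog*, *Zfp42*, *Esrrb*, *Klf4* and *Tfcp2l1*) were all present, the lowest being *Klf4* at 255 TPM (transcripts per 1000000, reads scaled to exon length and to the sample total). Their summed level was 4476 to 4932 TPM in *Hdac3*+/+ and 5407 to 6053 TPM in *Hdac3*-/- samples, and the 7 did not move together. *Nanog* was at 1517 to 1687 TPM in *Hdac3*+/+ and 2174 to 2587 in *Hdac3*-/-, and *Zfp42* was also higher in every *Hdac3*-/- sample. *Esrrb* was lower in every *Hdac3*-/- sample, at 360 to 399 TPM against 402 to 442, *Tfcp2l1* was lower in both at 0 hr, and *Sox2* overlapped. The 14 markers of other cell types summed to 113 to 190 TPM in *Hdac3*+/+ and 104 to 146 TPM in *Hdac3*-/- samples. *Elf5* and *Myod1* were at 0 in at least 1 sample, and *T* was the most abundant of them, at up to 104 TPM. The 2 *Hdac3*+/+ replicates differed in these markers. *Cdx2* was at 40.7 and 35.0 TPM in *Hdac3*+/+ replicate 2 at 0 and 24 hr, and at 9.82 to 12.4 in the other samples. *T* was at 104 and 75.1 in that replicate and at 45.5 and 36.8 in replicate 1. *Otx2*, *Col1a1*, *Thy1*, *Sox1* and *Pax6* were lower in replicate 2 than in replicate 1 at both times.

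The promoters of the partner genes that were called higher in *Hdac3*-/- cells before DOX, *Tbl1x* and *Tbl1xr1*, are shown first because these paralogs carry the main result. The sequences are RefSeq's, on GRCm38.p6, on the plus strand, from 250 bases before the RefSeq start up to the last base before the gene's first exon in GENCODE M21. That window is chrX:77510977-77511012 for *Tbl1x*, where the GENCODE exon begins after 36 bases, and chr3:22076402-22076651 for *Tbl1xr1*. Capitals mark a GC box, searched as GGGCGG on both strands. The stretch shown for *Tbl1x* holds none.
Tbl1x: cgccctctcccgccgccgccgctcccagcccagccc
Tbl1xr1: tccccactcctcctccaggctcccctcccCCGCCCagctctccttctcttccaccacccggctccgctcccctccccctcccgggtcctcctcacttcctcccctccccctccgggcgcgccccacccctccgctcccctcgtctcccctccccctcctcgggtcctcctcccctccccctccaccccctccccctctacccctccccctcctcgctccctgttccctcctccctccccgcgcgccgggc
Both stretches are rich in G and C, at 86.1% and 76.0% of their bases. Over the whole 250 bases before the RefSeq start, *Tbl1x* had 36 CpG dinucleotides and *Tbl1xr1* had 15, against a median of 6 over 32851 mouse promoters. Over these 250 bases each held 1 GC box, that of *Tbl1x* lying outside the bases shown, and such a match was found in 32.7% of all promoters. Neither held the box CCAAT, which was found in 33.8% of all promoters, the box TATAAA (12.4%) or the nuclear receptor half-site AGGTCA (14.02%), each searched on both strands. None of these motifs overlaps another. These letters describe the promoters and name no bound factor. Of the 5 genes, 4 were matched in the promoter table. Of the partners not called at 0 hr, *Gps2* had 17 CpG dinucleotides and *Ncor1* had 34 and 2 before its RefSeq starts. A high CpG count was therefore not particular to the called partners.

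The deleted gene comes first because it checks the labels. The enzyme of the complex, *Hdac3* (chromosome 18), was at 41.5 and 46.8 CPM in *Hdac3*+/+ replicates 1 and 2 before DOX, 45.5 and 47.0 in *Hdac3*+/+ after 24 hr, 6.41 and 8.15 in *Hdac3*-/- before DOX and 6.09 and 7.70 in *Hdac3*-/- after 24 hr. CPM are counts per 1000000 reads on the genes above 1 TPM in at least 2 of the 8 samples, after trimmed mean of M values (TMM) scaling. Every *Hdac3*-/- sample lay far below every *Hdac3*+/+ sample, in the direction of the labels. At 0 hr *Hdac3* fell by 2.61 on the log2 scale (SE 0.18), with an adjusted p of 0.000391 by edgeR's quasi-likelihood test with Benjamini-Hochberg adjustment over all genes. At 24 hr it fell by 2.75 (SE 0.18), with an edgeR adjusted p of 0.000116. In the *Hdac3*-/- samples the remaining level was 13.2% to 18.5% of the *Hdac3*+/+ mean of the same time. The counts cover all exons of the gene, those outside the deletions included. In bulk RNA alone, fewer cells with the transcript and less transcript per cell cannot be told apart. The study checked its knockout clones by sequencing of the alleles. It reports negligible *Hdac3* mRNA and no protein found with an antibody to the amino terminus.

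The remaining *Hdac3* reads came from both alleles. The d-score, the share of allele-assigned reads that carry the B6 allele, in *Hdac3*+/+ samples was 0.482 and 0.479 before DOX and 0.473 and 0.491 after 24 hr. In *Hdac3*-/- cells at 0 hr the share was 30.6% (11 of 36 reads, exact 95% interval 16.3 to 48.1%) and 35.9% (14 of 39 reads, 21.2 to 52.8%). At 24 hr it was 40.9% (9 of 22 reads, 20.7 to 63.6%) in replicate 1 and 68.8% (22 of 32 reads, 49.99 to 83.9%) in replicate 2. The *Hdac3*-/- intervals are Clopper-Pearson intervals, cover counting error only, and are wide at this depth. In the study's methods the exons removed differ by clone and allele, and the allelic tests here take the clones together. The part of the deletions in these shares was not tested. The log2 B6:Cast ratio of *Hdac3* was lower in *Hdac3*-/- at 0 hr by a difference of -0.88 (SE 0.40), which did not pass the test (edgeR adjusted p = 0.559), and its change from 0 to 24 hr in *Hdac3*-/- was 1.40 (SE 0.54, edgeR adjusted p = 0.892).

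**Figure D1:**
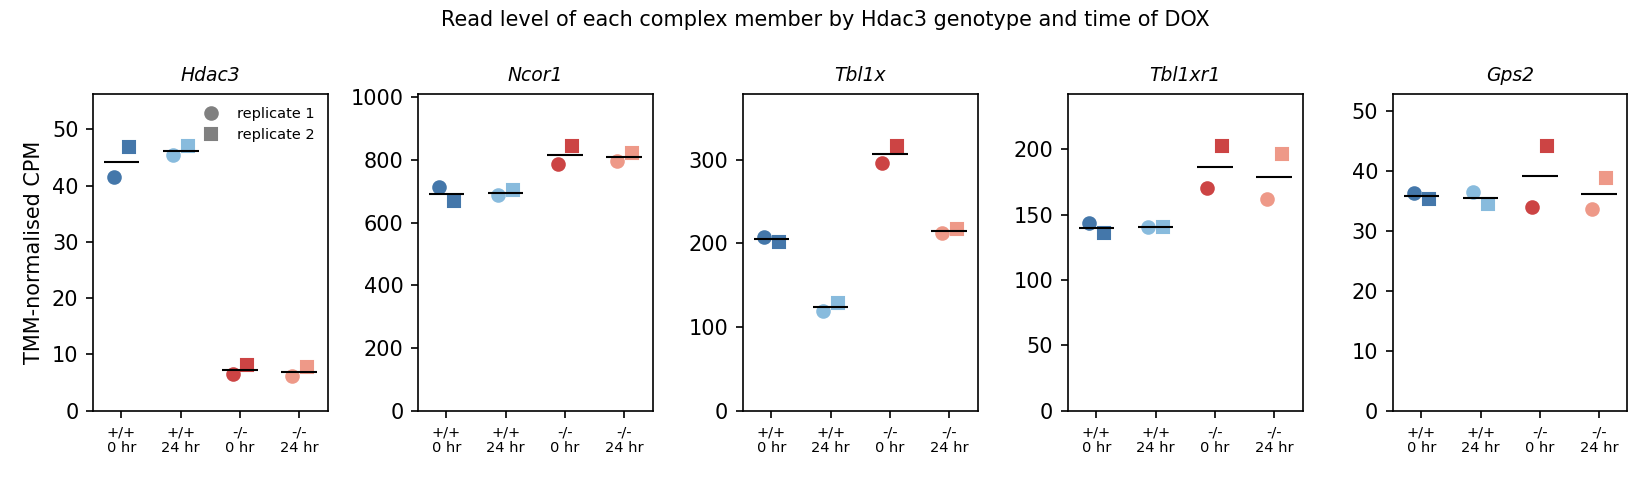
TMM-normalised CPM of the 5 genes (y axis, linear from 0, a scale of its own for each gene) in the 4 groups of *Hdac3* genotype and time of DOX (x axis). Circles and squares are replicates 1 and 2 and lines are group means. *Hdac3* sits near 7 in all *Hdac3*-/- samples, *Ncor1*, *Tbl1x* and *Tbl1xr1* are higher in every *Hdac3*-/- than in every *Hdac3*+/+ sample, and *Gps2* overlaps.

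Before DOX, 2 of the 4 partners were higher in *Hdac3*-/- cells, none was lower, and both are WD40-repeat subunits. Among all 13226 genes tested at 0 hr, 13.6% were called, 6.33% as higher and 7.24% as lower in *Hdac3*-/-. After 24 hr of DOX, *Tbl1x* was the only partner called, again higher, where 12.9% of 13807 genes were called, 6.16% as higher and 6.78% as lower. Of X-linked genes other than *Xist*, 119 of 553 were called at 0 hr, 69 of them higher. At 24 hr 136 of 582 were called, 116 of them higher. The median difference of the 5 genes, *Hdac3* included, was 0.24 at 0 hr on the log2 scale, against 0.00 over all genes tested, and 0.22 at 24 hr against 0.01. Read levels of 3 of the 4 partners (*Ncor1*, *Tbl1x* and *Tbl1xr1*) were higher in all 4 *Hdac3*-/- samples than in all 4 *Hdac3*+/+ samples, a pattern that 16.3% of the 13807 genes had. The 4 *Hdac3*-/- samples come from the same 2 clones at both times, so the 2 time points are not independent repeats.

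The corepressor scaffold *Ncor1* (chr11:62316426-62458541, minus strand) was at 713 and 671 CPM in *Hdac3*+/+ before DOX, 687 and 705 in *Hdac3*+/+ after 24 hr, 787 and 844 in *Hdac3*-/- before DOX and 798 and 823 in *Hdac3*-/- after 24 hr. All *Hdac3*-/- values lay above all *Hdac3*+/+ values, and the genotypes did not overlap. The difference was 0.24 (SE 0.09) at 0 hr and 0.22 (SE 0.07) at 24 hr on the log2 scale and did not pass edgeR's test at either time, with adjusted p-values of 0.104 and 0.0771. At 0 hr it passed without *Hdac3*-/- replicate 1 (edgeR adjusted p = 0.0256). With DOX the level differed by 0.01 (SE 0.07) in *Hdac3*+/+ and -0.01 (SE 0.07) in *Hdac3*-/- on the log2 scale. *Ncor1* shares 83 exon bases with genes on the opposite strand.

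*Tbl1x* (chrX:77511013-77662983, plus strand) encodes the WD40-repeat subunit from the X chromosome. It was at 207 and 202 CPM in *Hdac3*+/+ before DOX, 119 and 128 in *Hdac3*+/+ after 24 hr, 296 and 316 in *Hdac3*-/- before DOX and 213 and 217 in *Hdac3*-/- after 24 hr. The lowest *Hdac3*-/- sample, after DOX, was still above the highest *Hdac3*+/+ sample, before DOX. At 0 hr *Tbl1x* was 1.501-fold higher in *Hdac3*-/- (log2 difference 0.59, SE 0.09, edgeR adjusted p = 0.0062), and both *Hdac3*-/- replicates showed it, at 145% and 154% of the *Hdac3*+/+ mean. At 24 hr it was 1.74-fold higher (log2 difference 0.80, SE 0.08, edgeR adjusted p = 0.000641). The call at 0 hr was lost without *Hdac3*+/+ replicate 1 (edgeR adjusted p = 0.0714) or replicate 2 (0.088), which leave a single *Hdac3*+/+ sample at that time. The size of the difference stayed at 0.60 and 0.56 in these fits.

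Its paralog *Tbl1xr1* (chr3:22076652-22216594, plus strand) was at 144 and 136 CPM in *Hdac3*+/+ before DOX, 141 in both *Hdac3*+/+ samples after 24 hr, 171 and 202 in *Hdac3*-/- before DOX and 162 and 197 in *Hdac3*-/- after 24 hr. The genotypes did not overlap, and *Hdac3*-/- replicate 2 was the higher of its pair at both times. At 0 hr *Tbl1xr1* was 1.34-fold higher (log2 difference 0.42, SE 0.11, edgeR adjusted p = 0.0429). At 24 hr the difference of 0.35 (SE 0.12) did not pass (edgeR adjusted p = 0.0839), but it passed without *Hdac3*-/- replicate 1 of that time (0.0331). The call at 0 hr was lost without *Hdac3*+/+ replicate 1 (edgeR adjusted p = 0.206), without *Hdac3*+/+ replicate 2 (0.285) and with voom and limma (adjusted p = 0.0505). Transcripts of *Tbl1x* and *Tbl1xr1* share none of the windows of 50 bases compared between them, so no exact stretch of that length fits both paralogs. The study's mapping allowed mismatches, and reads that could fit both in that way were not looked for.

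The adaptor subunit *Gps2* (chr11:69913888-69916591, plus strand) was at 36.3 and 35.3 CPM in *Hdac3*+/+ before DOX, 36.5 and 34.5 in *Hdac3*+/+ after 24 hr, 34.1 and 44.1 in *Hdac3*-/- before DOX and 33.6 and 38.8 in *Hdac3*-/- after 24 hr. Both *Hdac3*-/- pairs straddled the *Hdac3*+/+ values, with replicate 1 below and replicate 2 above them. The log2 difference was 0.13 (SE 0.16, edgeR adjusted p = 0.636) at 0 hr and 0.03 (SE 0.15, edgeR adjusted p = 0.934) at 24 hr. No difference in *Gps2* was detectable with 2 samples a group, and its sign at 0 hr turned without *Hdac3*-/- replicate 2, to -0.06.

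**Figure D2:**
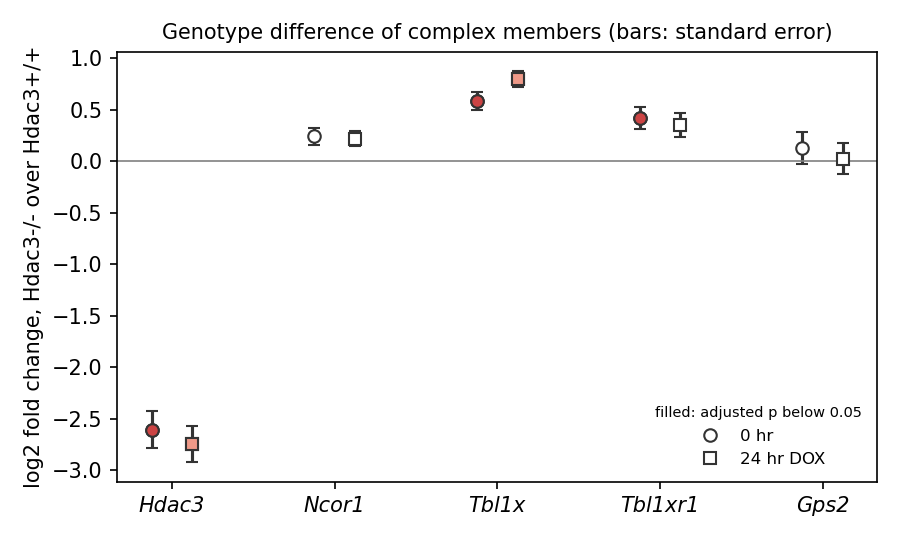
Log2 fold change of *Hdac3*-/- over *Hdac3*+/+ (y axis) with its standard error for the 5 genes (x axis), at 0 hr (circles) and 24 hr of DOX (squares); filled symbols passed edgeR's test at an adjusted p of 0.05. *Hdac3* lies at -2.61 and -2.75, *Tbl1x* is filled at both times at 0.59 and 0.80, and *Tbl1xr1* is filled at 0 hr, at 0.42.

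On a scale of TPM, which allows genes to be compared with each other, the order of the levels in *Hdac3*+/+ at 0 hr was *Ncor1* at 183 ± 16.2 (mean ± SD, n = 2), *Tbl1x* at 98.3 ± 6.20, *Gps2* at 75.6 ± 4.90, *Tbl1xr1* at 53.2 ± 4.43 and *Hdac3* at 36.8 ± 1.46. Neighbours in this order did not overlap. In *Hdac3*-/- at 0 hr the order was the same, with *Ncor1* at 203 ± 7.82, *Tbl1x* at 139 ± 4.71, *Gps2* at 77.8 ± 13.3, *Tbl1xr1* at 66.9 ± 7.28 and *Hdac3* at 5.73 ± 0.907. There the TPM of *Gps2* and *Tbl1xr1* overlapped. The ratio of *Hdac3* to *Ncor1* in TPM was 0.184 to 0.221 in the *Hdac3*+/+ samples and 0.0241 to 0.0305 in the *Hdac3*-/- samples.

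With DOX, the X-linked *Tbl1x* was the only gene of the 5 that was called. Of 582 X-linked genes other than *Xist*, 28 were called with DOX in *Hdac3*+/+ cells. The X-linked median log2 difference there was -0.54, and *Tbl1x* had the 183rd lowest value. In *Hdac3*+/+ cells total *Tbl1x* fell by 0.73 on the log2 scale (SE 0.08, edgeR adjusted p = 0.016), 1 of the 5 genes in a comparison that called 0.21% of 13807 genes. The call was lost when any single *Hdac3*+/+ sample was left out, with edgeR adjusted p-values of 0.201 and 0.144 without 0 hr replicates 1 and 2 and 0.348 and 0.203 without 24 hr replicates 1 and 2. In *Hdac3*-/- cells the log2 difference was -0.51 (SE 0.08, edgeR adjusted p = 0.141) and did not pass, in a comparison that called 0.0217% of genes. It passed with DESeq2 (adjusted p = 0.00508) and in edgeR without a filter on low counts (0.000793). The difference between the genotypes in this response, 0.22 (SE 0.11), did not pass edgeR's interaction test (edgeR adjusted p = 1.0). That test called 0 genes, or 0.0%, with 261 genes at an unadjusted p below 0.05, and DESeq2 called 1 gene and voom 0. For the autosomal genes *Hdac3*, *Ncor1*, *Tbl1xr1* and *Gps2*, log2 differences with DOX ranged from -0.11 to 0.07 and none was called.

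*Tbl1x* was the gene of the complex whose allelic balance differed with DOX. Before DOX the d-score of *Tbl1x* was 0.549 and 0.576 in *Hdac3*+/+ samples and 0.518 and 0.516 in *Hdac3*-/- samples. After 24 hr it was 0.221 and 0.206 in *Hdac3*+/+ samples and 0.332 and 0.282 in *Hdac3*-/- samples. Both genotypes lost B6 share with DOX, and at 24 hr both *Hdac3*-/- samples kept a higher B6 share than both *Hdac3*+/+ samples. These shares rest on 335 to 784 allelic reads per sample at 0 hr and 126 to 368 at 24 hr. In its ChIP-seq, the study found a skewed X-chromosome input in a mutant sample. It attributed this to some XO cells, which have a single X chromosome, and corrected the shares. The RNA-seq shares here are not corrected, and the part of such cells in them was not tested.

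In *Hdac3*+/+ cells the log2 B6:Cast ratio of *Tbl1x* fell by 2.23 with DOX (SE 0.22, edgeR adjusted p = 5.48e-06), where 1.61% of 9595 genes and 49.5% of 301 X-linked genes other than *Xist* were called. In *Hdac3*-/- cells it fell by 1.26 (SE 0.17, edgeR adjusted p = 0.000709), where 0.406% of all and 12.6% of X-linked genes were called. With limma on the logit of the B6 share, the fall in *Hdac3*-/- did not pass (adjusted p = 0.229). The interaction, the change in *Hdac3*-/- minus that in *Hdac3*+/+, was 0.97 (SE 0.28). It did not pass after adjustment over all 9595 genes (edgeR adjusted p = 0.43) and passed when adjusted over X-linked genes, *Xist* included (0.0157). After adjustment over all genes it was called for 0.208% of all and 6.64% of X-linked genes, and after adjustment over X-linked genes for 96 of 302, or 31.8%, so the call of *Tbl1x* was shared by many X-linked genes. At 0 hr the allelic ratio of *Tbl1x* did not differ detectably between genotypes, at -0.26 (SE 0.16, edgeR adjusted p = 0.699), and 0.667% of all genes were called.

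**Figure D3:**
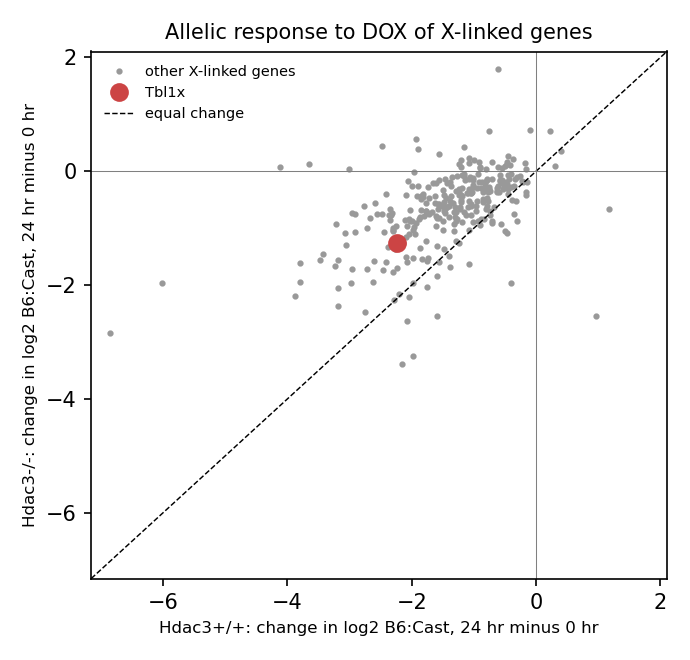
Change in log2 B6:Cast ratio from 0 to 24 hr of DOX in *Hdac3*+/+ (x axis) and in *Hdac3*-/- (y axis) for 301 X-linked genes without *Xist* (grey) and *Tbl1x* (red); the dashed line is equal change. *Tbl1x* lies at -2.23 and -1.26, above the line like most X-linked genes.

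The allelic change of *Tbl1x* with DOX lay below the X-linked median in both genotypes. The median X-linked change was -1.32 in *Hdac3*+/+ and -0.57 in *Hdac3*-/-, and *Tbl1x* had the 53rd and the 52nd lowest value of 301. Its interaction of 0.97 ranked 105 of 301 from the highest, where the median was 0.73 and the quartiles were 0.33 and 1.17. Its neighbours in that order were *Irak1* at 0.97 (SE 0.28), which encodes a kinase of interleukin signalling, and *Lamp2* at 0.97 (SE 0.26), which encodes a lysosomal membrane protein. For this interaction, *Tbl1x* lay within the quartiles of X-linked genes. For the genotype difference in total reads it lay above the upper quartile, at 0.59 against 0.37 at 0 hr and 0.80 against 0.75 at 24 hr. For the allelic ratio at 0 hr it lay just below the lower quartile, at -0.26 against -0.24.

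Counted by allele, B6 reads of *Tbl1x*, in CPM on the same scale, were at 19.6 and 17.6 in *Hdac3*+/+ before DOX and 3.17 and 4.06 after it, against 26.6 and 24.6 and then 11.8 and 9.35 in *Hdac3*-/-. Cast CPM was 16.05 and 12.98 in *Hdac3*+/+ before DOX and 11.2 and 15.6 after it, against 24.7 and 23.1 and then 23.8 in both samples in *Hdac3*-/-. Before DOX both alleles were higher in *Hdac3*-/-. After DOX the Cast reads of both genotypes stayed within or near the range of 0 hr while the B6 reads fell. Cast reads of *Tbl1x* and *Ncor1*, 2 of the 5 genes, were higher in all 4 *Hdac3*-/- than in all 4 *Hdac3*+/+ samples, as they were for 10.7% of 9595 genes.

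**Figure D4:**
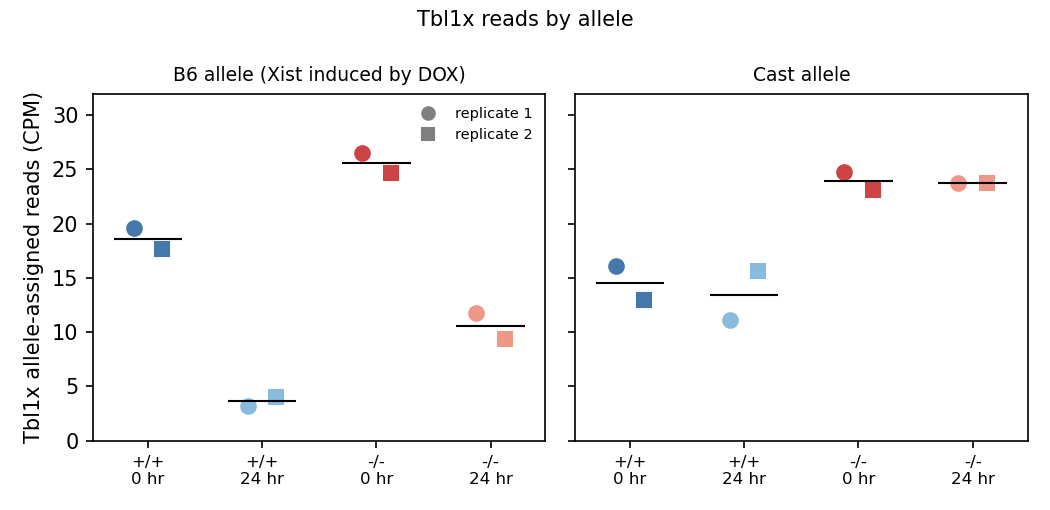
*Tbl1x* reads assigned to the B6 allele (left) and the Cast allele (right), in CPM on the normalised scale (y axis), in the 4 groups (x axis). Circles and squares are replicates 1 and 2 and lines are group means. B6 reads fall from 0 to 24 hr in both genotypes, and Cast reads are at 23.1 to 24.7 in all *Hdac3*-/- samples and at 11.2 to 16.05 in all *Hdac3*+/+ samples.

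At 0 hr the median total level of X-linked genes was close to equal in both genotypes. The median log2 difference of 553 X-linked genes was 0.01, and *Tbl1x* ranked 101 from the highest. At 24 hr the median of 582 X-linked genes was 0.32, and *Tbl1x* ranked 138 from the highest at 0.80. The median X-linked d-score before DOX was 0.497 and 0.5 in *Hdac3*+/+ samples and 0.503 and 0.481 in *Hdac3*-/- samples. After 24 hr it was 0.286 and 0.278 in *Hdac3*+/+ samples and 0.404 and 0.395 in *Hdac3*-/- samples. The part of the X-wide difference in the *Tbl1x* difference at 24 hr was not tested.

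No autosomal partner was called in an allelic comparison. *Ncor1* had d-scores of 0.602 and 0.593 in *Hdac3*+/+ before DOX, 0.580 and 0.589 in *Hdac3*+/+ after 24 hr, 0.568 and 0.561 in *Hdac3*-/- before DOX and 0.545 and 0.563 in *Hdac3*-/- after 24 hr. All *Hdac3*-/- values lay below all *Hdac3*+/+ values, toward equal shares, but the difference at 0 hr did not pass (-0.19 in log2 B6:Cast, SE 0.08, edgeR adjusted p = 0.507). *Tbl1xr1* had d-scores of 0.417 to 0.517 and *Gps2* of 0.490 to 0.600 over the 8 samples, and neither was called in an allelic comparison.

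**Figure D5:**
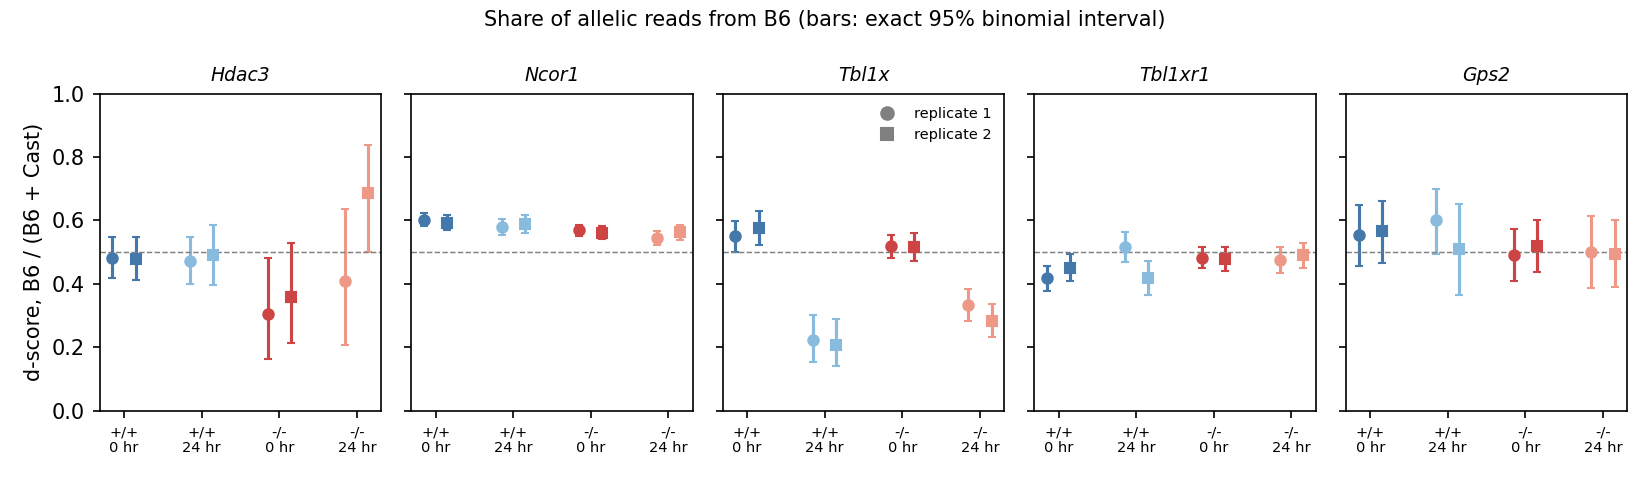
d-score, the B6 share of allelic reads (y axis, 0 to 1), of the 5 genes in the 4 groups (x axis), with exact 95% binomial intervals for counting error; circles and squares are replicates 1 and 2 and the dashed line is equal shares. *Tbl1x* drops with DOX, to 0.206 and 0.221 in *Hdac3*+/+ and 0.282 and 0.332 in *Hdac3*-/-, and the intervals of *Hdac3* in *Hdac3*-/- are wide.

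Other proteins reported with the complex did not pass the test at either time. Of *Coro2a*, *Kdm4a* and *Zbtb33*, 2 were tested at 0 hr and 3 at 24 hr, with median log2 differences of 0.23 and 0.45. The median at 24 hr is the value of *Coro2a* itself (SE 0.81), a gene of few reads. Its *Hdac3*-/- replicates then lay on opposite sides of the *Hdac3*+/+ mean, at 199% and 73.1% of it. *Kdm4a*, a histone demethylase, was at 87.9 ± 3.48 CPM (mean ± SD, n = 2) in the parental line and 107 ± 6.24 in *Hdac3*-/- before DOX (edgeR adjusted p = 0.104). The X-linked *Zbtb33*, which encodes the methyl-DNA-binding protein KAISO, was at 14.4 ± 4.96 in *Hdac3*+/+ and 23.5 ± 3.68 in *Hdac3*-/- at 24 hr (edgeR adjusted p = 0.0753). *Coro2a*, which encodes an actin-binding WD40 protein, was at 0.679 ± 0.314 in *Hdac3*+/+ at 0 hr and too low to be tested there. None of the 8 subunits of the CCT chaperonin, which folds proteins such as those with WD40 repeats, was called at 0 or 24 hr. The median log2 differences were 0.24 and 0.15. The smallest adjusted p at 0 hr was that of *Tcp1* (0.28, SE 0.08, edgeR adjusted p = 0.0647). Of all genes tested, 13.6% were called at 0 hr and 12.9% at 24 hr. With so few genes, the lack of calls is no result about either list.

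Of 23 factors that dock on NCoR, 14 were tested, and 4 were higher and 0 lower in *Hdac3*-/- at 0 hr, where 6.33% of all genes tested were higher and 7.24% lower, with a median log2 difference of 0.15. The retinoic acid receptor gene *Rarg* rose from 33.8 ± 2.13 to 117 ± 23.4 CPM (log2 difference 1.80, SE 0.16, edgeR adjusted p = 0.000869), and *Rara* from 50.6 ± 8.15 to 79.7 ± 2.22 (0.66, SE 0.14, edgeR adjusted p = 0.0191). *Rbpj*, the DNA-binding factor of Notch signalling, rose from 376 ± 24.5 to 681 ± 68.0 (0.86, SE 0.10, edgeR adjusted p = 0.00264). *Spen* rose from 623 ± 18.6 to 861 ± 56.2 (0.47, SE 0.09, edgeR adjusted p = 0.013) and was also called at 24 hr (0.51, edgeR adjusted p = 0.00307). At 24 hr 4 of the 14 were higher and 0 lower, where 6.16% of all genes tested were higher. These were not the same 4 genes, since *Rara* did not pass at 24 hr (0.45, edgeR adjusted p = 0.0826).

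Subunits of complexes built on HDAC1 and HDAC2 were called in both directions, with 2 of 20 higher and 2 lower at 0 hr, where 13.6% of all genes were called, and a median log2 difference of 0.06. With so few genes this is no result about the list. The NuRD genes *Chd3*, a chromatin remodeller, and *Mta1*, a scaffold, were lower, by log2 differences of -1.54 (SE 0.19, edgeR adjusted p = 0.00291) and -0.65 (SE 0.11, edgeR adjusted p = 0.0103). The histone chaperone *Rbbp7*, X-linked, and the demethylase *Kdm1a* were higher, at 0.43 (SE 0.10, edgeR adjusted p = 0.0305) and 0.36 (SE 0.09, edgeR adjusted p = 0.0344). At 24 hr again 2 were higher and 2 lower, where 12.9% of all genes were called. Of 10 tested genes for enzymes of inositol phosphate metabolism, 2 were called against the same 13.6% at 0 hr: *Itpk1* was higher (0.65, SE 0.11, edgeR adjusted p = 0.00991) and *Itpka* lower (-0.88, SE 0.17, edgeR adjusted p = 0.016) at 0 hr, and 2 were lower at 24 hr. Of the 7 ESC markers, 2 were called, *Nanog* (0.67, edgeR adjusted p = 0.00486) and *Zfp42* (0.70, edgeR adjusted p = 0.00858), both higher in *Hdac3*-/- at 0 hr, and the other 5, *Esrrb* and *Tfcp2l1* included, did not pass. Of the 7 markers of other cell types tested, the neural gene *Sox1* was lower (-1.70, edgeR adjusted p = 0.021). The part of these marker differences in the values of the complex genes was not tested.

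Across the 8 samples, the genes most like each gene of the complex were sought by Pearson's r of log2 CPM plus 1. The search covered 10033 genes with a mean of at least 5 per 1000000 reads of the whole library, without TMM scaling. The samples form genotype clusters, share libraries and are few, so these values are descriptions. For *Hdac3* they were *Ebf1*, *Dppa3*, *Tpbg*, *Mapk8ip1* and *Arhgdia*, with r of 0.994 to 0.996. *Dppa3*, for example, was at 81.2 ± 3.39 CPM in *Hdac3*+/+ samples and 17.6 ± 1.64 in *Hdac3*-/- samples before DOX. For *Tbl1x* all 5, *Tro*, *Otud5*, *Nono*, *Ikbkg* and *Magt1*, were X-linked, with r of 0.978 to 0.988. *Tro* was at 17.1 ± 1.60 in *Hdac3*+/+ samples and 35.5 ± 1.78 in *Hdac3*-/- samples before DOX, and at 6.49 ± 0.567 and 21.7 ± 1.10 at 24 hr, the order of groups seen for *Tbl1x*, with *Hdac3*-/- at 24 hr above *Hdac3*+/+ at 0 hr. For *Ncor1* they were *Tipin*, *Tbc1d32*, *Setd5*, *Sbno1* and *Nsmce2* (r of 0.991 to 0.997), for *Tbl1xr1* *Ubb*, *Pramel6*, *March7*, *Hmox1* and *Atg14* (0.987 to 0.991), and for *Gps2* *Rnf121*, *Zfp955b*, *Washc2*, *Twistnb* and *Slc13a5* (0.946 to 0.957).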

How the data were processed

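Per the labels and the study's methods, rRNA-depleted libraries were sequenced as paired reads, and the authors mapped them with TopHat2 2.1.0 and counted reads over gene exons by strand with featureCounts 1.5.1; the submitters' processing notes name mm10. The deposited tables hold, for each gene, the unnormalised total count, the counts assigned to the B6 and Cast alleles, and the d-score, the authors' fraction of B6 among B6 plus Cast reads. It is missing below 10 allelic reads, as checked in every table. Gene positions and exon lengths come from GENCODE M21 (GRCm38); 660 of 24542 symbols had no match.

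Total counts were tested with edgeR 4.0.16 (R 4.3.3; TMM, glmQLFit and glmQLFTest) for genes above 1 TPM in at least 2 samples: the 4 samples at 0 hr (2 residual degrees of freedom), and all 8 samples for the other comparisons (4). For allelic tests, each sample gave a B6 and a Cast column with its own sample effect, and each group a B6 term (genes with at least 10 allelic reads in all 8 samples). Genes were called at a Benjamini-Hochberg adjusted p below 0.05, over all genes tested, at any fold. Alternatives were DESeq2 1.42.0, voom with limma 3.58.1, other filters, a replicate block and leaving out each sample. On simulated counts, the test at 0 hr recovered 22% of genes changed by 0.5 on the log2 scale and 66% of those changed by 1. The test at 24 hr recovered 16% and 62% of such genes, and the interaction test 3% and 44%. The allelic interaction test recovered 16% of genes changed by 1 and 59% of those changed by 2. Interactions that did not pass are therefore weak evidence of no difference. Replicates of a group differed by more than sampling noise (chi-square per degree of freedom 3.19 to 12.8).

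The genes and gene lists were chosen with earlier results of these data known. The text names the 5 genes, *Coro2a*, *Kdm4a*, *Zbtb33*, up to 4 genes of each other list by smallest adjusted p at 0 hr, the 5 genes of highest r with each of the 5 genes, and the neighbours of *Tbl1x* by allelic interaction. All 7 ESC markers and, of the markers of other cell types, *Cdx2*, *Elf5*, *Myod1*, *Otx2*, *Pax6* and *T* are also named, chosen after their values were seen. A gene the rule also named is not reported here. Sequences are RefSeq's.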

Additional observations from a re-analysis of the deposited data

Results flagged for a closer look

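The allelic response of *Tbl1x* to DOX differed between the genotypes by an interaction term when p-values were adjusted over X-linked genes, but not over all genes. The log2 B6:Cast ratio fell by 2.23 in *Hdac3*+/+ and by 1.26 in *Hdac3*-/-, a difference of 0.97 (SE 0.28), with edgeR adjusted p-values of 0.0157 over X-linked genes and 0.43 over all genes, and a range of 0.0157 to 1.0 over all settings tried. Both *Hdac3*-/- samples at 24 hr had a higher B6 share than both *Hdac3*+/+ samples. Under the same adjustment 96 of 302 X-linked genes (31.8%) were called, the X-linked median difference was 0.73, and *Tbl1x* ranked 105 of 301 from the highest. Groups of 2 samples are too small for a check of single outlying samples.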

How the results depend on the processing

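With 2 samples a group, differences such as those of *Ncor1* and *Gps2* could not be resolved, and *Hdac3*-/- samples held 22 to 39 allelic *Hdac3* reads each. Among 534 values of the 5 genes under other settings, 473 kept their direction and side of the threshold, 10 lost a call, 10 gained a call and 41 changed sign, none of these called in either fit. *Hdac3* at 0 and 24 hr, *Tbl1x* at 24 hr and the allelic change of *Tbl1x* with DOX in *Hdac3*+/+ kept their calls under every setting; the calls of *Tbl1x* and *Tbl1xr1* that were lost are given with the results. Over all settings, adjusted p-values ranged from 0.0256 to 0.495 for *Ncor1* at 0 hr and 0.0231 to 0.301 at 24 hr, 1.51e-07 to 0.088 for *Tbl1x* at 0 hr, 2.48e-05 to 0.285 for *Tbl1xr1* at 0 hr and 0.017 to 0.32 at 24 hr. For *Tbl1x* with DOX they ranged from 2.59e-08 to 0.348 in *Hdac3*+/+ and 0.000793 to 0.75 in *Hdac3*-/-, and for its allelic change in *Hdac3*-/- from 2.23e-05 to 0.229. The cause of changes was not tested, apart from fewer samples or other sets of genes tested.

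The number of called genes moved by more than 1.5 times as follows. Without a filter on low counts it was 3107 at 0 hr, 2939 at 24 hr, 275 for DOX in *Hdac3*+/+, 36 for DOX in *Hdac3*-/- and 6 for the interaction, against 1795, 1786, 29, 3 and 0. DESeq2 called 115, 15 and 1 genes for the last 3 comparisons, and voom called 12 for DOX in *Hdac3*+/+. Leaving out each sample gave 326 to 3361 at 0 hr, 440 to 1980 at 24 hr, 2 to 84 for DOX in *Hdac3*+/+ and 2 for DOX in *Hdac3*-/-; the low counts came without an *Hdac3*+/+ sample (326 and 343 at 0 hr, 440 and 465 at 24 hr), the high counts at 0 hr without an *Hdac3*-/- sample (3361 and 2990). For allelic comparisons the counts were 154 and 39 for DOX in *Hdac3*+/+ and *Hdac3*-/-, 20 for the interaction and 64 for genotype at 0 hr. Limma on the logit gave 97, 1, 0 and 2, adjustment over X-linked genes gave 121, 96 and 4 for the last 3, and leaving out each sample gave 83 to 158, 27 to 45, 3 to 21 and 12 to 121. Leaving out *Rn45s* changed nothing, since it has no length and was already outside the filter.

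Same-numbered samples deviated together, by r of replicate differences across 13807 genes. This r was 0.700 between *Hdac3*-/- at 0 hr and at 24 hr and 0.209 to 0.338 between the other pairs of groups. With 2 pairs the labels do not show what the numbers share. With the replicate block, 2944 genes were called at 0 hr, 3379 at 24 hr, 190 and 13 for DOX in *Hdac3*+/+ and *Hdac3*-/-, 31 for the allelic interaction and 109 for the allelic genotype comparison. *Ncor1* passed with the replicate block at 0 hr (0.24, edgeR adjusted p = 0.048) and 24 hr (0.22, 0.0231), *Tbl1xr1* at 24 hr (0.34, 0.0282) and *Tbl1x* for DOX in *Hdac3*-/- (-0.51, 0.0193), and it changed no other call of the 5 genes. *Tbl1xr1* at 24 hr also passed without a filter (adjusted p = 0.017).

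Values near 0 whose sign turned when a sample was left out ranged as follows on the log2 scale. *Gps2* ranged from -0.062 to 0.31 at 0 hr, -0.080 to 0.13 at 24 hr, -0.052 to 0.037 and -0.29 to 0.087 for DOX in *Hdac3*+/+ and *Hdac3*-/-, and -0.28 to 0.097 for the interaction. In the same last 3 comparisons *Hdac3* ranged from -0.0094 to 0.15, -0.25 to 0.099 and -0.31 to 0.034, *Ncor1* from -0.035 to 0.063, -0.059 to 0.043 and -0.072 to 0.034, and *Tbl1xr1* from -0.029 to 0.059, -0.20 to 0.075 and -0.21 to 0.065. In log2 B6:Cast with DOX in *Hdac3*+/+, *Hdac3* ranged from -0.045 to 0.062, *Tbl1xr1* from -0.096 to 0.49 and *Gps2* from -0.29 to 0.24 (-0.027 with limma on the logit). With DOX in *Hdac3*-/- it was -0.036 to 0.054 for *Tbl1xr1* and -0.13 to 0.041 for *Gps2*, and for the interaction -0.035 to 0.068 for *Ncor1*, -0.48 to 0.11 for *Tbl1xr1* and -0.28 to 0.24 for *Gps2*.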
